A study of Danio rerio with 9 samples.

Results

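The compact shared core sites of zebrafish sperm are 667 short stretches of the genome at which every ATAC-seq library had a peak. Overlapping peaks of the 9 deposited peak lists were merged wherever they shared at least 1 bp, on chromosomes 1 to 25 without chromosome 4. A merged region was selected on measured values: a peak in all 9 lists, a merged width below 800 bp, and a median peak score below 1000 over the libraries. The 667 sites were 0.526% of the 126838 merged regions on any sequence, 100858 of which lay on these chromosomes, and covered 359 kb.

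Spermatozoa of zebrafish (Danio rerio) came from males whose heart had been lesioned by freezing (cardiac cryoinjury) 7 days earlier (5 libraries), and from uninjured males as controls (4 libraries). The question is whether cardiac injury goes along with a difference in sperm chromatin. The fish were adults, and the labels give neither strain nor age nor whether a library came from 1 male or a pool. Each library was made from 100000 spermatozoa and read as 100 bp pairs. Because separate males are not stated, all p-values rest on how far these libraries spread, and that spread may be technical. The purity of the spermatozoa was not analysed here, since peak lists carry no marker level of other cells.

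In ATAC-seq the Tn5 transposase cuts DNA that is not covered by protein and joins sequencing adapters to it, so reads pile up at open chromatin and a peak marks such a stretch. Sperm of most vertebrates replaces its histones with protamines, whereas zebrafish sperm keeps its genome packed in nucleosomes. A short open stretch in such chromatin often corresponds to a gap between nucleosomes, as found at promoters, enhancers and sites bound by other proteins.

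The lists held 253847 peaks, from 15508 in injured library 3 to 45277 in control library 4. Read depth per library is unknown. The labels give 4.6 to 29 M retained reads without tying a value to a library, so a missing peak means that none was called there. Any pair of lists shared at most 27 peaks with the same bounds, so no list was a copy of another. The score is the authors' own, with no stated scale. It was used to describe and rank peaks within a list.

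Of 1893 regions with a peak in all 9 lists, 1329 lay on the 24 chromosomes used, and 708 of these were narrower than 800 bp. The score bound removed 41 of the 708. The 621 regions of 800 bp or more, called broad shared regions here, serve as 1 comparison set. The other is the 33365 regions below 800 bp with a peak in 2 to 8 lists, called narrow regions here. They share the bound but not the width of the sites. Their median merged width was 384 bp, against 532 bp at the sites. Only those in more lists came near, with 527 bp in 8 lists. Just inside the score bound lay chr10:3219057-3219849 (median score 990), chr17:46505735-46506157 (980) and chr21:44157992-44158513 (979). Just outside it lay chr16:15689202-15689972 (1038), chr11:15142558-15143211 (1075) and chr25:240609-240967 (1110). Across the bound the scores stepped from 990 to 1038. At the width bound chr1:25587877-25588675 and chr21:4617644-4618442 (799 bp each) and chr7:53035251-53036048 (798 bp) were just inside. The regions chr5:2409566-2410365 and chr5:53347785-53348584 (800 bp each) and chr10:33163910-33164710 (801 bp) were just outside. The widths thus ran on across their bound, and whether the score bound falls at a natural break was not tested.

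Most compact sites were weak to moderate peaks that were nevertheless called in every library. The median score per site ran from 26 to 990 with a median of 88. It was below 100 at 381 sites (57.1%), from 100 to below 300 at 216 and 300 or more at 70. Broad shared regions had a median of 108, and narrow regions with a peak in 8 lists had 59.5. At 54 sites at least 1 library had a score below 20, close to the lowest deposited score of 13, whereas 89 sites scored 100 or more in every library.

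Within each list, too, the sites scored above narrow regions of 2 to 8 lists. The median score over the sites was 82, 97, 78, 88 and 77 in injured libraries 1 to 5 and 89, 111, 79 and 140 in control libraries 1 to 4. The narrow regions had medians of 31 to 38 in the libraries that detected them, and all peaks of a list had 30 to 34. Counted from the best-scored peak of a list, the median rank of the sites was 1658.5 to 3001.5. Sites and comparison regions differ here partly by how they were chosen, so these values are a description. The sites made up 1.48% of the longest list and 4.30% of the shortest. Among the 1000 best-scored peaks of a library, 111 to 214 lay at these sites, the fewest in injured library 1 and the most in injured library 3.

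**Figure D1:**
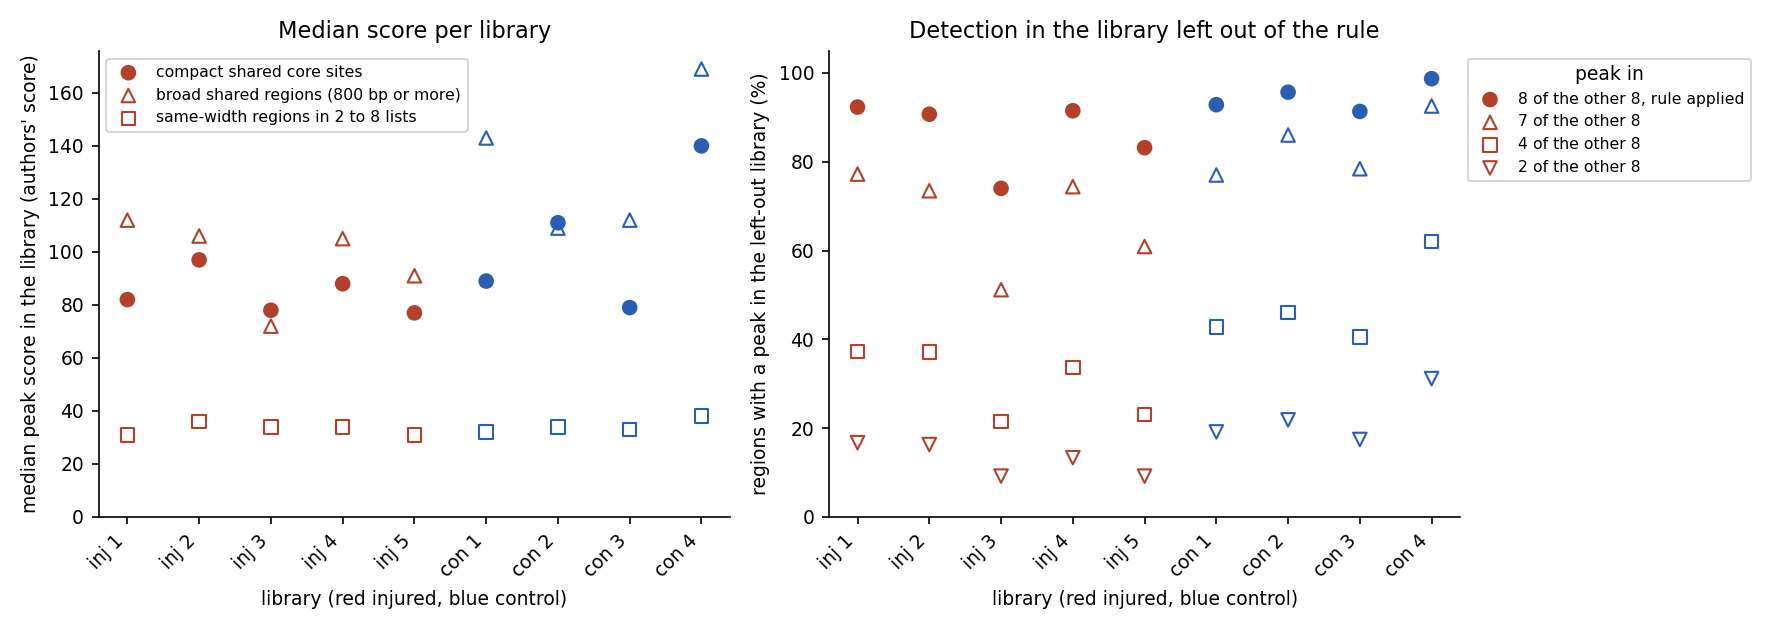
Left, median peak score (authors' score) per library over the 667 compact sites, the broad shared regions and narrow regions in 2 to 8 lists. The last are labelled same-width and share only the bound of 800 bp. Right, percent of regions with a peak in a library whose list had been left out of the rule. Compact sites stood above the 2-to-8-list regions in all 9 libraries, and detection in the left-out library was lowest in injured library 3 (74.0%) and highest in control library 4 (98.7%).

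Detection in every list is fixed by the rule, so the rule was also applied to 8 lists at a time and detection was read in the ninth, a step added after the data had been seen. Of the regions chosen on the other 8 lists, 92.3%, 90.7%, 74.0%, 91.5% and 83.2% had a peak in injured libraries 1 to 5. The shares were 92.8%, 95.7%, 91.3% and 98.7% in control libraries 1 to 4. Injured library 3, with 666 of 900 regions detected, had the shortest list, and control library 4 the longest. Narrow regions with a peak in 7 of the other 8 lists were detected in 74.6% ± 12.3 (SD, n = 9), and those in 4 of 8 in 38.2% ± 12.2 (SD, n = 9). Detection averaged 86.3% ± 7.80 (SD, n = 5) for the injured group, beside 94.6% ± 3.25 (SD, n = 4) for the control group. The groups overlapped between 91.3% and 92.3%, list length moved with these shares, and its part in them was not tested.

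The sites were also ordered alike by the libraries. Spearman's rho between the scores of a pair of libraries over the 667 sites averaged 0.636 over 6 control pairs, 0.587 over 10 injured pairs and 0.604 over 20 mixed pairs. The mean of the mixed pairs lay between the means of the control and the injured pairs. The single pairs overlapped, with 0.570 to 0.713 for control, 0.476 to 0.671 for injured and 0.429 to 0.702 for mixed pairs. Injured library 3 was least like the others, with a mean rho of 0.508 against 0.586 to 0.637 for the rest. These are correlations across sites, which are not independent replicates.

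In shape, a typical site was 1 short peak per library, and the peaks of the libraries overlapped in part. The merged width was 223 to 799 bp with a median of 532 bp, and the median peak within it 356 bp. In 636 sites (95.4%) every library had a single peak, and in 31 at least 1 library had more. The best-scored peaks of all 9 libraries shared at least 1 bp at 617 sites and at least 100 bp at 537, with a median shared stretch of 185 bp. The shared stretch made up at least 50% of the merged width at 200 sites (30.0%). At 50 sites the 9 best peaks had no base in common, so that overlapping peaks bridged them into 1 region.

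The position of the peak centre varied by an SD of 39.4 bp over the libraries at the median site. This SD was 125 bp at broad shared regions and 48.3 bp at narrow regions in 8 lists. The left and right edges varied by 50.6 and 49.6 bp. The centre SD was at most 10 bp at 38 sites and over 100 bp at 39. The width bound limits how far a centre can move, so the gap to the broad regions follows in part from the rule.

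Sites with higher scores were placed more exactly. The median centre SD was 48.1 bp at sites scoring below 100, 31.1 bp from 100 to below 300 and 27.1 bp at 300 or more, and the stretch shared by all libraries was 145, 232 and 282 bp. Over the 667 sites Spearman's rho was -0.435 between centre SD and median score, and 0.292 between peak width and score. It was -0.0323 between merged width and score. Score, width and centre come from the same peaks, and these are correlations across sites.

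**Figure D2:**
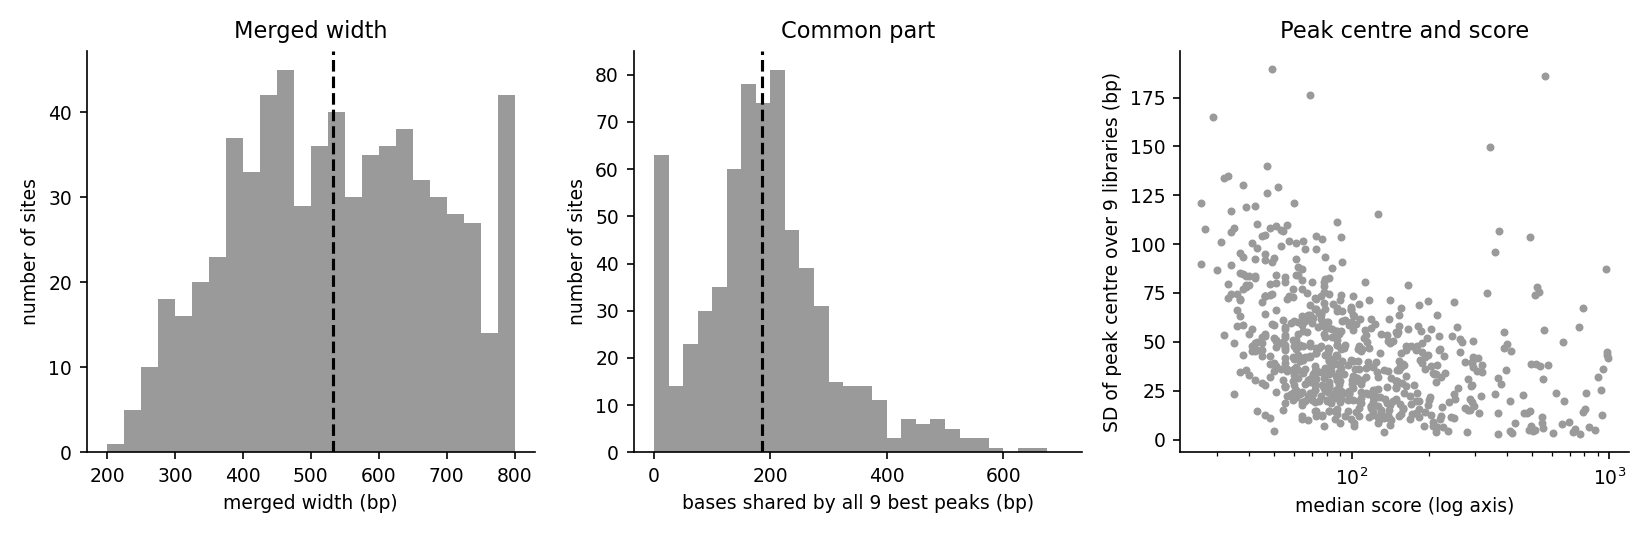
Shape of the 667 compact sites: number of sites by merged width and by the stretch shared by all 9 best peaks, both in bp with the median as a dashed line, and SD of the peak centre over the libraries in bp against the median score (authors' score, log axis). The median centre SD was 39.4 bp at compact sites, 48.1 bp at those scoring below 100 and 27.1 bp at those scoring 300 or more.

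The most exactly placed site was chr14:20097426-20097974, with a centre SD of 2.75 bp, a median score of 769 and 510 of its 549 bp shared by all libraries. Its peaks were 519, 546, 528, 510 and 523 bp wide in injured libraries 1 to 5 and 546, 518, 511 and 516 bp in control libraries 1 to 4. No library stood apart, and the groups overlapped. At chr20:19920220-19920533 the centre SD was 2.84 bp, with widths of 309, 310, 309, 294 and 304 bp in injured and 314, 301, 289 and 303 bp in control libraries. Here 286 of 314 bp were shared. The sites chr12:14348821-14349325 and chr23:3535843-3536389 both had a centre SD of 3.39 bp and shared 465 of 505 bp and 477 of 547 bp. The centre SD was 3.76 bp at chr7:3615118-3615392 and 3.77 bp at chr22:21233273-21233507. These 6 sites span 235 to 549 bp, so exact placement was found in short and in longer sites.

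The narrowest site was chr13:3572196-3572418, 223 bp wide, with a median score of 50. Its peaks were 121, 197, 221, 206 and 188 bp wide in injured libraries 1 to 5 and 176, 212, 165 and 217 bp in control libraries 1 to 4. Injured library 1 had the shortest peak, and the groups overlapped. The site chr18:31584970-31585204 was 235 bp wide and had a median score of 503, with peaks of 235, 200, 201, 210 and 211 bp in injured and 220, 220, 209 and 230 bp in control libraries. It was thus among the narrowest and among the stronger sites. The other narrowest sites were chr22:21233273-21233507 (235 bp), chr9:133769-134009 (241 bp), chr14:46476667-46476912 (246 bp) and chr10:42699997-42700245 (249 bp), with median scores of 134, 215, 78 and 68.

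The site with the highest score was chr10:3219057-3219849. Its scores were 780, 1158, 854, 990 and 988 in injured libraries 1 to 5 and 1307, 533, 1270 and 1589 in control libraries 1 to 4. Control library 2 was lowest, control library 4 highest, and the groups overlapped. At chr11:35141440-35142079, with a median score of 933, the scores were 1622, 896, 335, 932 and 933 in injured and 1847, 765, 1199 and 1531 in control libraries, the lowest in injured library 3. At chr17:46505735-46506157 the peak of injured library 1 was 166 bp wide, against 380 to 416 bp in the other 8. The remaining sites of this kind were chr21:44157992-44158513, chr13:25285-25969 (median score 969) and chr16:30343376-30344152 (947).

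Between injured and control males, values per library over the sites were tested by exact permutation of the libraries, two-sided. The lowest p the design allows is 0.00794 for 1 side, and the lowest two-sided p is above that. Adjustment was over 5 values, of which the share kept in shortened lists is given below as a description. That share has no valid test, yet its p entered the adjustment. The adjusted p for median peak width is lower than it would be without that share. None of the other 4 passed an unadjusted p of 0.05. The median peak width at the sites was 327, 352, 336, 359 and 323 bp in injured libraries 1 to 5 and 351, 383, 344 and 406 bp in control libraries 1 to 4. The control libraries reached higher, and the groups overlapped. They averaged 339 ± 15.6 bp (SD, n = 5) when injured and 371 ± 28.9 bp (SD, n = 4) when uninjured, a difference of -31.6 bp (exact permutation p = 0.111, 0.278 adjusted). Without control library 4 it was -19.9 bp.

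When every list was cut to its 15508 best-scored peaks, the length of the shortest, 620, 637, 667, 649 and 663 sites kept a peak in injured libraries 1 to 5 and 630, 636, 610 and 623 in control libraries 1 to 4. Injured library 3 kept all, since its list was not shortened. As shares, 97.0% ± 2.89 (SD, n = 5) remained in the injured and 93.7% ± 1.68 (SD, n = 4) in the control group. No test is given for these shares, because the rule and the shortening fix the value of injured library 3 and the other lists were shortened by different amounts. More than 1 peak was present at 0.72% ± 1.12 (SD, n = 5) of sites in the injured group and at 0.975% ± 0.654 (SD, n = 4) in the control group, for which the exact permutation p was 0.730 (adjusted 0.762). The median distance of a library's peak centre from the site's median centre was 17.7 ± 1.92 bp (SD, n = 5) for the injured and 16.9 ± 1.89 bp (SD, n = 4) for the control group, with an exact permutation p of 0.603 (adjusted 0.762). That difference of 0.825 bp was 0.125 bp without injured library 1 and reached 1.38 bp without injured library 4. The median rank percentile of the sites among all 1893 shared regions was 43.4 ± 1.99 (SD, n = 5) and 43.0 ± 2.56 (SD, n = 4), with an exact permutation p of 0.762 (adjusted 0.762). For the share with over 1 peak, the centre distance and the median rank, the difference was smaller than the SD of either group.

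Site by site, accessibility was compared as the rank of the best peak's score among the 1893 shared regions of its library. Ranks were turned into normal scores and tested with limma over all 1893 regions. No compact site passed an adjusted p of 0.05, and neither did any other shared region (0.0% called). The lowest adjusted p at a compact site was 0.918. At an unadjusted p below 0.05, 19 of the 667 sites (2.85%) ranked higher in injured libraries, beside 2.64% of all shared regions, and 14 (2.10%) ranked lower, beside 1.43%. Ranks of the groups did not overlap at 5 sites (0.750%) that were higher in injured libraries, beside 0.687% of all shared regions, and at 3 (0.450%) that were lower, beside 0.423%. The median difference was -0.01 at the sites and -0.01 over all shared regions, on the scale of normal scores, with a median standard error of 0.31 at the sites. The shares at the sites were near those of all shared regions.

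The sites first by p are given as rank percentiles, from 0 for the lowest-scored shared region to 100 for the highest. At chr2:34251571-34252074 they were 35.5, 33.2, 25.4, 34.6 and 40.6 in injured libraries 1 to 5 and 4.89, 19.9, 1.43 and 16.1 in control libraries 1 to 4. Every injured value was above every control value. The means were 33.9 ± 5.49 (SD, n = 5) beside 10.6 ± 8.83 (SD, n = 4), with a limma adjusted p of 0.918. At chr1:43426857-43427653 they were 29.7, 11.6, 31.3, 22.4 and 21.7 in injured and 8.66, 11.7, 1.43 and 2.38 in control libraries. Injured library 2 lay just below control library 2, so the groups overlapped. Scores at both sites fell to 19 in control library 3, near the lowest deposited score of 13. At chr14:49599888-49600320 the injured mean was 46.8 ± 7.44 (SD, n = 5) beside a control mean of 17.2 ± 12.6 (SD, n = 4), and at chr25:3571755-3572146 it was 44.4 ± 21.2 and 12.6 ± 9.35. At chr3:8414266-8414765 it was 43.3 ± 7.07 and 22.3 ± 11.4.

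In the other direction, chr16:44217875-44218544 had 29.7, 27.4, 46.6, 28.8 and 17.7 in injured libraries 1 to 5 and 51.0, 61.3, 68.7 and 47.4 in control libraries 1 to 4. Every control value was above every injured value, though injured library 3 lay within 1 percentile of control library 4. The difference was -0.73 on the scale of normal scores (SE 0.21, limma adjusted p = 0.918). At chr23:45938011-45938629 the injured mean was 44.8 ± 13.9 (SD, n = 5) beside a control mean of 72.3 ± 8.57 (SD, n = 4), without overlap. At chr19:9103811-9104279 the percentiles were 12.7, 12.9, 11.1, 51.4 and 21.7 in injured and 49.9, 54.6, 40.9 and 56.5 in control libraries. Injured library 4 lay among the control libraries. The means were 18.0 ± 12.7 and 41.1 ± 8.90 at chr2:55479055-55479567 and 16.0 ± 7.02 and 39.4 ± 14.4 at chr16:36604146-36604540. At each of these 3 sites at least 1 injured library lay above the lowest control library.

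Peak width was compared in the same way, as log2 width centred on each library's median over the shared regions. Again 0 compact sites and 0 shared regions passed the adjusted p of 0.05 (0.0% called), with a lowest adjusted p of 0.408. At an unadjusted p below 0.05, centred width was larger in injured libraries at 21 of the 667 sites (3.15%), beside 3.01% of all shared regions. It was smaller at 11 (1.65%), beside 2.59%. Centred widths of the groups did not overlap at 9 sites (1.35%) with larger values in injured libraries, beside 1.22%, and at 4 (0.600%) with smaller ones, beside 0.423%. The median centred difference was 0.05 log2 at the sites and 0.04 over all shared regions. A positive value means wider relative to the library's own median, not wider in bp. In bp, the median peak width at the sites differed by -31.6 bp.

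**Figure D3:**
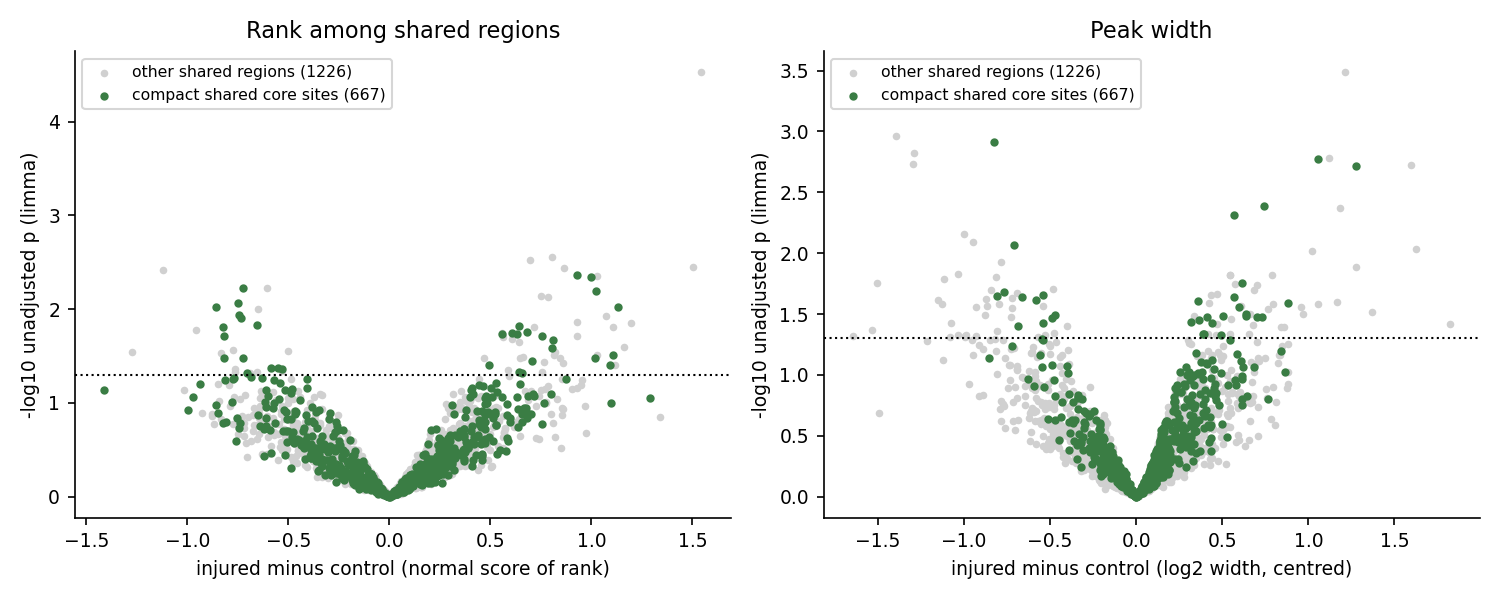
Injured minus control difference at the 667 compact sites among the 1893 regions shared by all lists, for the rank (normal scores) and the width (centred log2 bp), against -log10 of the unadjusted limma p, with a dotted line at 0.05. The compact sites lie among the other shared regions, and no site passed an adjusted p of 0.05.

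The site first by p was chr20:53155761-53156235, where peaks were 236, 190, 256, 218 and 205 bp wide in injured libraries 1 to 5 and 447, 384, 475 and 430 bp in control libraries 1 to 4. Every control peak was wider than every injured peak. They averaged 221 ± 25.9 bp (SD, n = 5) when injured and 434 ± 38.1 bp (SD, n = 4) when uninjured, and the centred difference was -0.82 log2 (SE 0.18, limma adjusted p = 0.408). Without centring it was -0.98 log2 with a limma adjusted p of 0.0469.

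At chr21:7699331-7699795 the widths ran the other way, with 424, 448, 457, 413 and 392 bp in injured and 184, 291, 305 and 165 bp in control libraries. The groups did not overlap, and the difference was 1.06 log2 (SE 0.25, limma adjusted p = 0.408). At chr16:25942823-25943573 the peaks were 448, 589, 561, 575 and 590 bp wide in injured and 166, 243, 168 and 599 bp in control libraries. Control library 4 stood with the injured libraries, the other control libraries far below. The difference was 1.28 log2 (limma adjusted p = 0.408) and 1.63 log2 without control library 4 (limma adjusted p = 0.0212). With the widths of all peaks in the region summed in each library, it was 0.63 log2 (limma adjusted p = 0.803). The size of the difference thus depended on taking only the best-scored peak. The 9 best peaks had no base in common at this site, nor at chr7:39256034-39256618, chr16:36240099-36240596 and, of the sites named for rank, chr1:43426857-43427653. Scores at chr7:39256034-39256618 were low in every library, from 18 to 40. The means were 276 ± 72.2 and 179 ± 19.6 bp at chr7:39256034-39256618, 260 ± 62.6 and 462 ± 27.1 bp at chr16:36240099-36240596, and 285 ± 138 and 507 ± 82.5 bp at chr19:11777882-11778514 (each injured first, SD, n = 5, then control, SD, n = 4).

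The sites were spread over all 24 chromosomes, from 14 on chromosome 14 to 43 on chromosome 7. Chromosome lengths were taken as the last peak end in any list, since no genome of the build was used. There were 5.27 sites per 10 Mb on average, the most on chromosome 22 (7.92), 16 (7.24) and 24 (7.11) and the fewest on chromosome 14 (2.66) and 6 (3.15). For every 100 narrow regions of 2 to 8 lists there were 3.90 sites on chromosome 22, 2.80 on chromosome 12 and 1.19 on chromosome 20. Chromosome 22 was thus highest by both measures.

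Near the chromosome ends, 49 sites (7.35%, exact binomial 95% interval 5.48% to 9.60%) lay within 1 Mb of the first base or of the last peak end. Of the narrow regions of 2 to 8 lists, 4.79% did (4.57% to 5.03%). The share was 7.49% among those with a peak in 8 lists. Among broad shared regions it was 9.98%. The intervals cover counting error only.

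A close neighbour was less common at the sites than at narrow regions seen in fewer lists. Another merged region of any kind lay within 5 kb of 63.1% of sites (59.3% to 66.8%). The share was 76.3% (75.8% to 76.7%) for the narrow regions of 2 to 8 lists and 69.5% for those with a peak in 8 lists. The median gap to the nearest region was 2100 bp at the sites, 1694 bp at the regions of 2 to 8 lists, 2081.5 bp at those with a peak in 7 lists and 1990 bp at those in 8, so the sites stood close to the regions most like them in detection. Among sites with a median score of 100 or more, 71.0% had another region within 5 kb. Of the broad shared regions 75.5% did, with a median gap of 950 bp. The rule leaves out shared regions that merged with close peaks to 800 bp or more. The part of this bound in the shares was not tested. These shares are a description, with no test.

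Among themselves, the sites were mostly solitary, with a few dense runs. The median distance to the nearest other site was 408 kb, and 87 sites had another within 10 kb, 198 (29.7%) within 100 kb and 452 (67.8%) within 1 Mb. Of 1282 windows of 1 Mb, 844 held no site and 306 held 1. The densest windows were at 12 to 13 Mb on chromosome 24 with 10 sites and at 36 to 37 Mb on chromosome 16 with 9. Those at 14 to 15 Mb on chromosome 12, 42 to 43 Mb on chromosome 17 and 21 to 22 Mb on chromosome 22 held 7 each.

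The closest pair was chr2:14729220-14729620 and chr2:14729789-14730297, 168 bp apart, with chr2:14725392-14725979 at slightly lower coordinates. Their median scores were 83, 490 and 535, so a lower-scored site lay between higher-scored ones. Peaks of the middle site were 229, 305, 207, 240 and 205 bp wide in injured libraries 1 to 5 and 283, 243, 401 and 293 bp in control libraries 1 to 4. The groups overlapped, with the widest peak in control library 3.

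With gaps of at most 10 kb, 580 sites stood alone, 23 runs held 2 sites, 3 held 3, 5 held 4, 1 held 5 and 1 held 7. The run of 7 lay at chr22:21227652-21244377, 16.7 kb with no broad shared region between the sites. Of its sites, chr22:21227652-21228094 and chr22:21230538-21230838 had median scores of 431 and 545. Between them lay chr22:21229367-21229916 with 101, so higher-scored and lower-scored sites lay within a few kilobases of each other. The last site of the run, chr22:21243861-21244377, had 72. The run also holds chr22:21233273-21233507, one of the narrowest and most exactly placed sites.

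Longer groups, chosen after their values were seen, were followed over the libraries by their ranks among the shared regions. At chr24:12450660-12527697, 10 compact sites and 11 broad shared regions lay within 77.0 kb. The median rank percentile of its 10 sites was 71.3, 31.7, 24.2, 69.4 and 56.2 in injured libraries 1 to 5 and 71.4, 46.8, 63.4 and 71.2 in control libraries 1 to 4. The group was low in injured libraries 2 and 3 and in control library 2, and high in the rest, so its level split both groups of males.

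A similar split was seen at chr12:14336687-14385865, where 6 sites lay within 49.2 kb. Their median rank percentile was 82.3, 46.7, 45.4, 73.9 and 77.3 in injured and 85.7, 51.0, 81.3 and 82.5 in control libraries. The same 3 libraries were lowest. The mean correlation between the ranks of a pair of its sites over the 9 libraries was 0.800 (0.606 to 0.967), against 0.608 in the group on chromosome 24, 0.710 among 4 sites at chr10:16810117-16832682 and 0.252 in the run of 7 on chromosome 22. The 4 sites on chromosome 10 ranked high in every library, with medians of 81.9 to 92.7. The sites on chromosome 22 did not move as a block, with pairs from -0.476 to 0.769.

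Neighbouring sites in general had ranks that went up and down together over the libraries. The mean correlation between a pair of sites was 0.473 at under 10 kb (75 pairs), 0.386 at 10 to 100 kb (170 pairs) and 0.103 at 100 kb to 1 Mb (367 pairs). Beyond, it was 0.0228 at 1 to 10 Mb and 0.00151 between chromosomes (212475 pairs). The likeness was thus largest below 100 kb, weak up to 1 Mb and near 0 beyond. Among pairs under 10 kb, 57.3% had a correlation over 0.5, beside 10.0% of pairs on different chromosomes.

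The pattern was present in either group of males, with 0.482 at under 10 kb over the 5 injured and 0.442 over the 4 control libraries. It was 0.451 without injured library 3, and 0.394 without the sites of the 4 groups named above. Broad shared regions had 0.569 at under 10 kb and 0.536 at 10 to 100 kb. These correlations rest on 9 libraries, and pairs share sites and libraries, so they are a description.

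**Figure D4:**
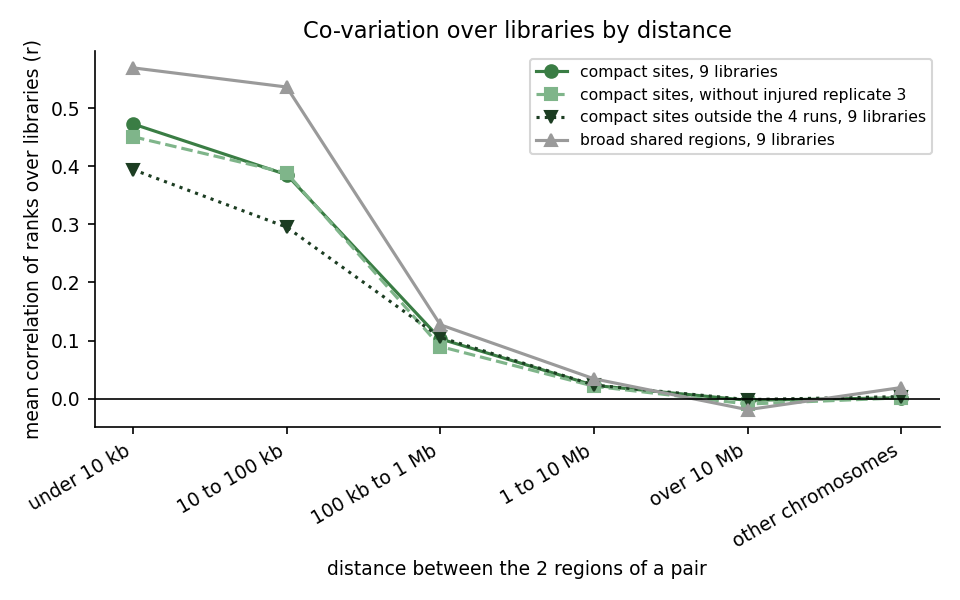
Mean correlation over the 9 libraries between the ranks of a pair of regions, by the distance between them on the chromosome, for compact sites, for compact sites without injured library 3 or without 4 dense groups, and for broad shared regions. For compact sites it fell from 0.473 under 10 kb to 0.103 at 100 kb to 1 Mb and was near 0 beyond.

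The largest shared axis of variation among the sites, the first principal component of their ranks over the libraries, held 22.5% of the variance, followed by 15.0% and 12.9%. Its coefficients were -0.259, 0.254, 0.751, -0.0399 and -0.0432 in injured libraries 1 to 5 and -0.305, 0.188, -0.379 and -0.168 in control libraries 1 to 4. Injured library 3 was at one end and control library 3 at the other, and the groups overlapped. Injured library 2 and control library 2, low in the groups on chromosomes 12 and 24, were on the side of injured library 3.

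After the data had been seen, 4 measures per library were set beside the axis. They were the median width, number and median score of all peaks in a list, and the median score over the sites. The axis moved with the median width of all peaks in a list. That width was 190, 280, 281, 242 and 231 bp in injured and 212, 252, 206 and 242 bp in control libraries. Over the 9 libraries Pearson's r was 0.873 (exact permutation p = 0.000617, adjusted over the 4 measures 0.00247). Spearman's rho was 0.921 (exact permutation p = 0.000981, adjusted 0.00392). Axis and measures were chosen with the data known, which the adjustment does not cover, so these p-values are a description. Without the libraries farthest from the median width, injured libraries 1 and 3, r was 0.927. With the number of peaks r was -0.528 (exact permutation p = 0.133, adjusted 0.178). It was 0.578 with the median score of a list (exact permutation p = 0.0937, adjusted 0.178). With the median score over the sites it was -0.0776 (exact permutation p = 0.932, adjusted 0.932). Each group holds fewer than 6 libraries, so r was not computed within groups. The 3 libraries with the widest peaks were also the ones in which the groups on chromosomes 12 and 24 were lowest. The part of peak width in the axis and in these groups was not tested.

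Along this axis the sites themselves also differed in peak width and in the gap to other regions. Peak width and score come from the same peaks, with a Spearman's rho of 0.292 over the sites. Width is thus not independent of the ranks. Divided into 5 equal parts from the negative to the positive end, their median peak width was 412, 387, 363, 338 and 312.5 bp. The median gap to the nearest region of any kind was 726, 1273, 2291, 3660 and 5383.5 bp. Sites toward the positive end, where injured libraries 2 and 3 and control library 2 lay, were thus the narrower and more isolated ones. Those toward the negative end, where control library 3 lay farthest out, were wider and lay closer to other accessible regions. Width and gap by the rank in a single library were not examined. The median score was 123.5, 86, 89, 88 and 79. These are values over sites with no test.

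**Figure D5:**
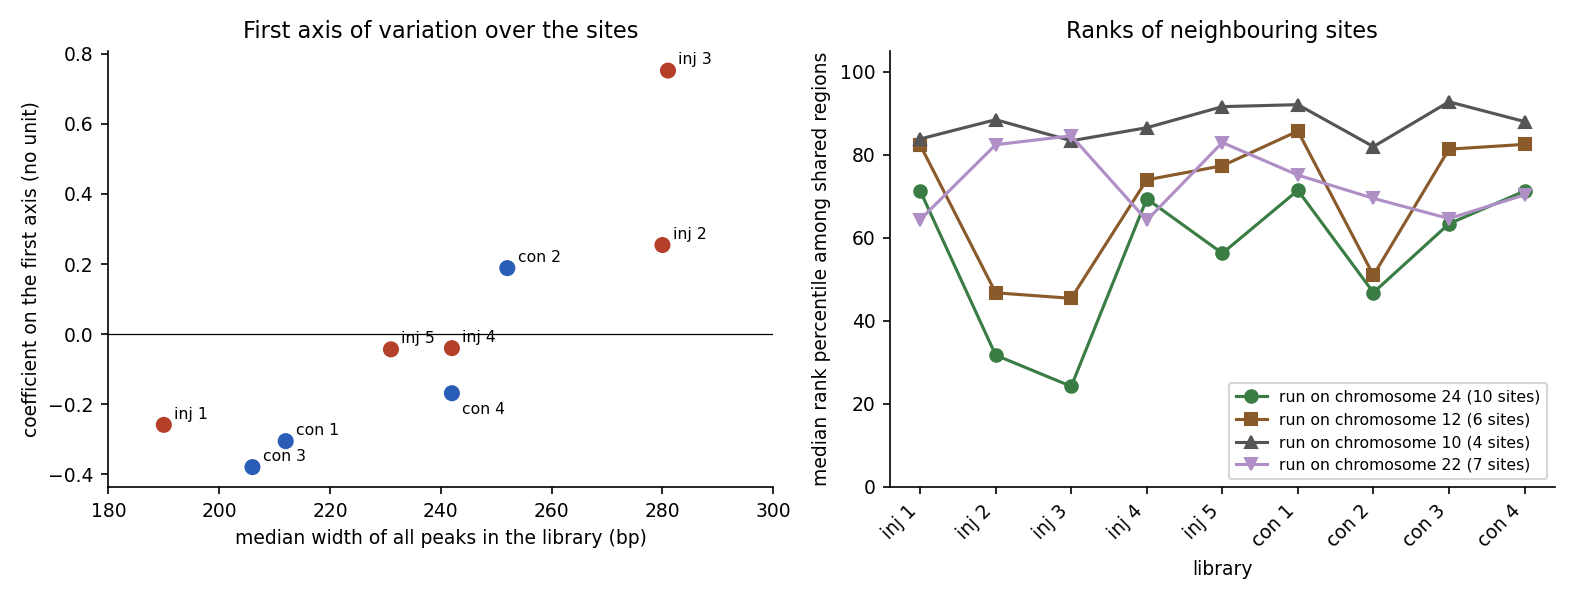
Left, coefficient of each library (red injured, blue control) on the first principal component of the ranks of the 667 sites against the median peak width of each list in bp; right, median rank percentile per library of the sites in 4 dense groups. Pearson's r was 0.873 over 9 libraries, and the groups on chromosomes 24 and 12 were lowest in injured libraries 2 and 3 and control library 2.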

How the data were processed

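Each library had 1 peak list with positions and a score per peak, deposited by the authors. The submitters' processing notes list the build GRCz11 and tools with no role or order: MACS2, Bowtie2, Trim Galore, Picard, SAMtools, bedtools, deepTools, ChIPseeker, DiffBind and DESeq2. For versions, the transposase shift, duplicates and the peak threshold, settings were not given in the sources used here. A different threshold or read depth could change the length of a list or the width of its peaks, which was not tested. No GRCz11 genome or annotation was used, so genes and sequences at the sites were not analysed here.

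Peaks were merged in Python 3.11.15 with pandas 2.3.3 and numpy 2.4.6. Contrasts used limma 3.58.1 in R 4.3.3 over all 1893 shared regions with Benjamini-Hochberg adjustment, and exact permutation tests used SciPy 1.17.1. The contrasts were tested on simulated data and the permutation test on a case with a known answer. Simulated shifts as large as the average spread of a region over the libraries went almost wholly uncalled. The absence of calls thus does not show that the groups were alike at the sites. A region's value was that of its best-scored peak. Coordinates are 1-based.

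The sites named are the 6 highest in score, the 6 narrowest, the 6 with the least centre SD, the first 5 (rank) and 3 (width) by p in each direction, those nearest the bounds and the closest neighbours. The sites and lists were chosen with earlier results of these data known. Runs, co-variation, the axis and detection in left-out libraries were added after seeing the data, so those values are descriptive. Alternatives were stricter lists, other bounds and overlaps, other scales, left-out libraries and a block by replicate number.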

Additional observations from a re-analysis of the deposited data

Results flagged for a closer look

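Of 94 groups of 4 or 5 library values examined, 6 held a library that stood far from the rest of its group. Chance gives about 1 in 20, or 4.7. The measure is the gap to the nearest other library divided by the range of the group.

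Injured library 1 had more than 1 peak at 2.70% of the sites, against 0% to 0.450% in the other injured libraries (gap over range 0.833). At chr10:3219057-3219849 the rank percentile was 88.2 in injured library 1, against 93.0 to 93.7 in the other injured libraries (0.867). At the same site it was 87.1 in control library 2, against 92.7 to 93.6 in the other control libraries (0.854). At chr23:3535843-3536389, one of the most exactly placed sites, it was 80.5 in control library 2, against 92.4 to 94.1 (0.875).

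Both remaining cases were in injured library 4. Its rank percentile was 51.4 at chr19:9103811-9104279, against 11.1 to 21.7 in the other injured libraries (0.738), and 40.5 at chr2:55479055-55479567, against 9.54 to 15.0 (0.823). At both sites injured library 4 lay among the control libraries.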

How the results depend on the processing

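The number of sites was 667 as reported, 441 from the better-scored 50% of peaks and 420 with a width below 600 bp. With 1 list left out it was 697 to 900. Calls in the rank contrast were 0 under every alternative run. In the width contrast they were 0 except for 1 site without centring (limma adjusted p = 0.0469) and 1 without control library 4 (limma adjusted p = 0.0212), so 0 to 1 with 1 library left out; the cause was not tested. The injured minus control difference in median rank percentile was 0.423 and ran from -0.370 to 1.18 with 1 library left out. The difference in the share of sites with over 1 peak was 0.131 percentage points in sites under 600 bp (exact permutation p = 0.873), opposite to the main direction. With 1 library left out, that difference was -0.750 to -0.0750 percentage points, the difference in median peak width -40.6 to -19.9 bp, in centre distance 0.125 to 1.38 bp, and in the share kept in equal-length lists, which has no valid test, 2.62 to 4.39 percentage points. Within 1 Mb of a chromosome end lay 6.98% of narrow regions in 5 to 8 lists. Within 5 kb of another region lay 71.8% of these, and 71.0% of sites scoring 100 or more.

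Deviations of libraries with the same number correlated by -0.130 to 0.0904 in rank and -0.115 to 0.126 in width. With different numbers the range was -0.136 to 0.221 in rank and -0.105 to 0.185 in width. Libraries of the same number were thus not more alike in these values. The labels state no pairing, and these correlations cannot settle whether there was one. With the replicate block 0 sites were called in either contrast, and the difference in median peak width was -27.5 bp (exact permutation p = 0.125). The block leaves out injured library 5, which has no control of the same number. In every same-number pair the injured library had the smaller median peak width. The p of 0.125 is thus the lowest that so few pairs allow. It cannot decide at 0.05 whether width differed. Alternatives on sequence features and gene starts were not run, since no genome of the build was used. Unknown read depth limits what a missing or weak peak shows.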
